A study of Mus musculus with 6 samples.

Results

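Protein tyrosine phosphatases and dual-specificity phosphatases remove phosphate from tyrosine, or from tyrosine together with serine and threonine, and so set how long the signals of tyrosine kinases and MAP kinases last. The genes described here were chosen by symbol from the mRNA table: every gene whose name begins with Ptpn and a digit (the non-receptor family), with Ptpr and a letter (the receptor-type family) or with Dusp and a digit (the dual-specificity family). The rule found 62 of the 21954 genes of the table: 20 receptor-type, 17 non-receptor, 10 MAP kinase phosphatases and 14 other, atypical, dual-specificity genes, plus Ptprcap, which the name pattern brings in although it encodes a protein that binds CD45 and is not itself a phosphatase. Whole thymus was taken from C57BL wild-type mice aged 5 weeks, and polyadenylated RNA was sequenced. The irradiated group was 3 mice exposed to 6 Gy of X-rays, whose thymuses were collected after 24 h, and the control group was 3 mice without irradiation. No transgene, deletion or sorting step is given in the labels, so each library holds thymocytes together with the other cells of the organ.

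The receptor-type enzymes have an extracellular part, a single membrane span and a phosphatase region inside the cell. In the thymus the best known is CD45, encoded by Ptprc, which keeps the kinase Lck ready to signal from the T cell receptor. Several others are known mainly from blood vessels, epithelium and nerve, where they act on cell contacts. The MAP kinase phosphatases bind MAP kinases and switch them off, and several are themselves induced by the pathway they end.

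To describe short motifs near the starts of these genes, the 250 bases before the gene start were searched for 6 motifs on both strands. The RefSeq windows of build GRCm38.p6 were used. Of the 62 genes, 50 matched, with 67 windows in all. The cAMP response element TGACGTCA, which reads the same on both strands and is bound by CREB-family factors, was in the windows of 4 of these 50 genes (8%), against 1.77% of 27025 genes with a window. It occurred in Dusp1 (chr17:26508473-26508722, minus strand), Dusp8 (chr7:142095285-142095534, minus strand), Ptpn11 (chr5:121191398-121191647, minus strand) and Ptpru (chr4:131838279-131838528, minus strand). They are shown because they are the 4 windows, of the 67, that hold the element. Each is written 5′ to 3′ on the gene's strand, and capitals mark the element, which Dusp8 holds at 2 places.
Dusp1: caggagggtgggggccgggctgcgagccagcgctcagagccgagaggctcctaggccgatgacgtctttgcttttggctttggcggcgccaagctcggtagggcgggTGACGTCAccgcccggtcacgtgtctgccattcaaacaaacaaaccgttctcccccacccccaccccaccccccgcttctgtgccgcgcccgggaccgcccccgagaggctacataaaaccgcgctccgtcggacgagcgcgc
Dusp8: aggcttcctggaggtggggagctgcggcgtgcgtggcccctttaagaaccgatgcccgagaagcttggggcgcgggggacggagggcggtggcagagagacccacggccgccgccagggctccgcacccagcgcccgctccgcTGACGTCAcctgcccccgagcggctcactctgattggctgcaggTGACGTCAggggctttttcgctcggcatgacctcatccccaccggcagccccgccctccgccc
Ptpn11: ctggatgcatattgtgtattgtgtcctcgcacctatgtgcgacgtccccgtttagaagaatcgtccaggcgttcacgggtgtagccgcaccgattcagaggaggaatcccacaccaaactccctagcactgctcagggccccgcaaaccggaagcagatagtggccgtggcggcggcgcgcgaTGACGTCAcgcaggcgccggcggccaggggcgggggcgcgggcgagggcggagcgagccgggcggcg
Ptpru: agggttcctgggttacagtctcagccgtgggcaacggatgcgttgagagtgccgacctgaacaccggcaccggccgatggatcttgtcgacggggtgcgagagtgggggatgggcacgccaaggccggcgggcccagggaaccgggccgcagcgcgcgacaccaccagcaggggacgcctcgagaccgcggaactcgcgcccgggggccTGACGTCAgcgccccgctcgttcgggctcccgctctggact

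The other motifs were the AP-1 site TGANTCA, the ETS site CCGGAAGT, the RUNX site TGTGGT, the TATA box TATAAA and the GC box GGGCGG, none of which lies within the letters of the cAMP response element. The GC box was in 34 of the 50 genes (68%), against 35.4% of all 27025 genes with a window. The TATA box was in 2 (4%), Ptprc and Ptpre, against 14.3% of the genes with a window. That wider set was not restricted to the genes measured here, so the 2 sets may differ in kinds of gene. The AP-1 site was in 3 genes (6%, against 7.82%) and the RUNX site in 7 (14%, against 15.9%). The ETS letters were in 0 of the 50 genes, against 3.23% of the genes with a window. A match is a description of the letters in the window. Among the 4 genes with the cAMP response element, Dusp1 had 17.2 ± 2.53 FPKM in irradiated thymus and 6.32 ± 1.12 in control thymus, Ptpru 2.05 ± 1.31 and 0.0839 ± 0.0157, Ptpn11 16.7 ± 3.25 and 10.9 ± 0.62, and Dusp8 0.636 ± 0.371 and 0.0672 ± 0.0267 (SD, n = 3 each). Irradiated values lay above all control values in these 4 genes, and also in 46.1% of all genes tested below. Dusp8 was too low to be tested. Any link between the element and these levels was not tested.

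Levels are in FPKM, fragments per kilobase of transcript scaled to the fragments of the library, as the authors computed them. Differences are log2 fold changes of irradiated over control on the log2(FPKM + 0.1) scale with their standard error, and "rose" or "fell" means an adjusted p under 0.05 in limma over all 14001 genes that averaged at least 0.5 FPKM. Of the 62 genes, 50 reached that average and 12 did not. In the 6 libraries together, most of these genes were higher in irradiated thymus, and the few that fell include the most abundant. Of the 50 tested, 29 rose, where 42.4% of all tested genes rose, and 6 fell, where 20.9% of all tested genes fell (63.2% of them passed in either direction). The 6 that fell were Ptprc, Ptprcap, Ptpn7, Ptpn18, Dusp10 and Ptprs. The median log2 fold change of the 50 genes was 1.08, against 0.40 for all tested genes. The 3 irradiated values lay above all 3 control values for 32 genes, below them for 9 and overlapped for 9, where 46.1% of all tested genes lay above and 24.7% below.

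The split between directions depends on the scaling of the libraries. On the deposited FPKM scale it was 29 higher and 6 lower, with quantile normalization 24 and 13, and with median-ratio scaling 26 and 13. Both scalings brought the median of all genes to about zero (-0.07 and -0.06), and the median of the 50 genes stayed above that of all genes by 0.55 and 0.68, against 0.68 on the FPKM scale. Leaving out irradiated replicate 1 gave 34 genes that rose and 9 that fell, and leaving out irradiated replicate 2 gave 28 and 5.

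**Figure D1:**
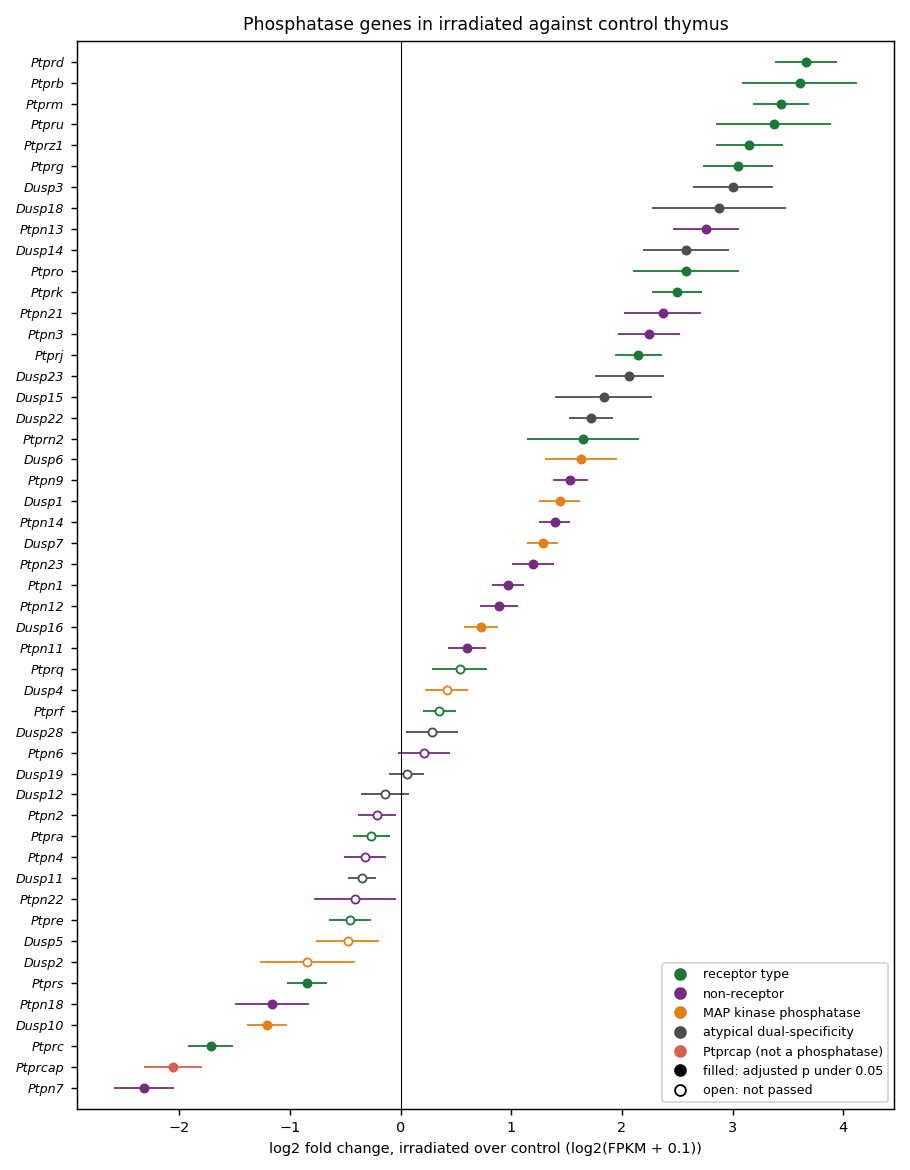
Log2 fold change of irradiated over control thymus on the log2(FPKM + 0.1) scale for the 50 tested genes, ordered by size, with bars of 1 standard error and colours by family. Filled points passed an adjusted p of 0.05: 29 lie to the right of zero and 6 to the left, from Ptprd at 3.66 to Ptpn7 at -2.32.

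The whole organ differed between the groups in its marker genes, and these values stand beside every result below. All 8 markers of double-positive thymocytes, the immature cells with both CD4 and CD8, fell, and their summed level was 96.9, 58.1 and 80.0 FPKM in the irradiated libraries and 1658, 1836 and 1929 FPKM in the control libraries. All 6 fibroblast, all 6 macrophage and all 5 pericyte markers rose, as did 5 of 6 endothelial and 5 of 6 thymic epithelial markers, while 0 of 4 B cell and 0 of 4 neutrophil markers passed. The fibroblast sum was 473, 516 and 486 FPKM in irradiated libraries, against 59.4, 79.7 and 75.5 FPKM in control libraries, and the macrophage sum 645, 775 and 859 FPKM, against 93.5, 123 and 115 FPKM. The endothelial sum was 34.8, 90.7 and 86.0 FPKM, against 29.5, 30.5 and 38.4 FPKM, and in irradiated replicate 1 most of it, 24.9 FPKM, was Pecam1, the marker that did not pass. The 5 other endothelial markers were lower in irradiated replicate 1 than in the other irradiated libraries and above every control, as with Cdh5 at 2.86, 18.1 and 20.03 FPKM, against 0.625, 0.515 and 0.764 FPKM. Irradiated replicate 2 held far more airway (3039 FPKM), adipocyte (1408 FPKM) and skeletal muscle (128 FPKM) marker RNA than any other library; the next highest sums, all in other irradiated libraries, were 45.1, 615 and 26.9 FPKM. In a bulk sample, fewer cells of a type and less RNA per cell cannot be told apart. The part of these marker differences in the results below was not tested.

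The receptor-type genes known from white blood cells were led by Ptprc, the gene of CD45 (chr1:138062861-138175708, GRCm38, ENSMUSG00000026395), which was the most abundant of the 62 genes in both groups. Ptprc had 149, 107 and 127 FPKM in irradiated thymus, against 417, 405 and 425 FPKM in control thymus. All 3 irradiated libraries lay below all 3 controls, and the mean stood at 30.7% of the control mean (log2 fold change -1.72 ± 0.20, adjusted p 0.000446). Ptprc made up 15.5% ± 2.51 of the summed FPKM of the 62 genes in irradiated thymus and 41.4% ± 1.31 in control thymus (SD, n = 3 each). Ptprcap, whose protein binds CD45 in lymphocytes, moved the same way, with 22.2, 10.8 and 13.2 FPKM in irradiated thymus and 55.2, 62.6 and 66.1 FPKM in control thymus (-2.05 ± 0.26, adjusted p 0.000619). It was the second most abundant of the genes in control thymus and held rank 19 in irradiated thymus.

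The non-receptor and dual-specificity genes of white blood cells did not all follow. Ptpn7, a phosphatase of lymphocytes that acts on the MAP kinase ERK, had 11.3, 5.88 and 12.1 FPKM in irradiated thymus, against 45.2, 47.9 and 47.7 FPKM in control thymus. Its decrease was the largest of all 50 tested genes (-2.32 ± 0.27, adjusted p 0.000431), and its mean was 20.9% of the control mean. Ptpn6 encodes SHP-1, which dampens receptor signalling in many white blood cells, and had 31.9, 50.8 and 59.7 FPKM in irradiated thymus and 37.3, 39.8 and 41.6 FPKM in control thymus. The groups overlapped, since irradiated replicate 1 lay below all controls and the other two above them (0.21 ± 0.24, adjusted p 0.447). Ptpn6 had rank 2 among the 62 genes in irradiated thymus and rank 5 in control thymus.

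Ptpn22 (PEP in mice), a phosphatase that restrains T cell receptor signalling, had 52.4, 21.4 and 19.4 FPKM in irradiated thymus and 35.0, 33.3 and 44.1 FPKM in control thymus. Dusp2 (PAC-1), a nuclear MAP kinase phosphatase of activated lymphocytes, showed the same arrangement, with 37.3, 10.4 and 16.9 FPKM in irradiated thymus and 27.9, 34.5 and 39.7 FPKM in control thymus. In both genes irradiated replicate 1 stood at or above the control level and the other two irradiated libraries below it. Neither passed over all 6 libraries (-0.41 ± 0.37, adjusted p 0.355 for Ptpn22, and -0.84 ± 0.43, adjusted p 0.123 for Dusp2). Without irradiated replicate 1 both fell (-0.87, adjusted p 0.00163, and -1.34, adjusted p 0.00164) and Ptpn6 rose (0.48, adjusted p 0.0111). Of the 6 white blood cell genes, 0 rose and 3 fell over all libraries, with a median log2 fold change of -1.28. Without irradiated replicate 1 the counts were 1 and 5. Of all 14001 tested genes, 42.4% rose and 20.9% fell over all libraries, and 6771 rose and 3461 fell without irradiated replicate 1. Among all 50 tested genes, irradiated replicate 1 was the irradiated library nearest the control mean in 56%, against 55.4% of all tested genes. Markers of mature T cells did not follow the double-positive markers: 3 of 5 rose and none fell, with a summed level of 161, 114 and 143 FPKM in irradiated thymus and 69.9, 85.5 and 98.6 FPKM in control thymus.

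The 11 genes listed for stroma, that is for vessels, fibroblasts, epithelium and nerve, went mostly the other way. Of these 11, 9 rose, 1 fell and 1 did not pass, where 42.4% of all tested genes rose and 20.9% fell. The median log2 fold change of the 11 was 3.05, against 0.40 for all tested genes. The stromal and white blood cell lists were chosen with earlier results of these data known. Ptprb encodes VE-PTP, an endothelial receptor that opposes the kinase Tie2, and had 2.87, 11.8 and 7.92 FPKM in irradiated thymus, against 0.534, 0.292 and 0.528 FPKM in control thymus. Irradiated replicate 1 was the lowest of the irradiated libraries, as it was in all 6 endothelial markers, and all 3 lay above the controls (3.61 ± 0.52, adjusted p 0.00101). Ptprm, a receptor that binds its own kind on neighbouring cells and is abundant in endothelium, had 5.90, 9.67 and 7.67 FPKM in irradiated thymus and 0.708, 0.584 and 0.545 FPKM in control thymus. Its 3 irradiated values stood 12.6-fold above the controls on average (3.44 ± 0.25, adjusted p 9.2e-05).

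Ptprd, Ptprf and Ptprs form the LAR subfamily, cell adhesion receptors with immunoglobulin and fibronectin repeats, and the 3 genes did not move together. Ptprd had 15.0, 15.3 and 11.7 FPKM in irradiated thymus and 1.53, 0.785 and 0.831 FPKM in control thymus, the largest log2 fold change of the 50 genes (3.66 ± 0.28, adjusted p 0.000103). Ptprf had 26.9, 36.3 and 33.8 FPKM in irradiated thymus and 25.8, 23.9 and 25.8 FPKM in control thymus (0.35 ± 0.15, adjusted p 0.0764). Its irradiated values lay above every control value, yet it did not pass, and it did pass without irradiated replicate 1 (0.48, adjusted p 0.00645). Ptprs had 17.1, 18.5 and 13.0 FPKM in irradiated thymus, against 29.0, 25.4 and 32.6 FPKM in control thymus, and fell (-0.84 ± 0.18, adjusted p 0.00521). Ptprs was thus the exception in the stromal list, lower in all 3 irradiated libraries while its closest relatives were not.

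Ptprg and Ptprz1 share a carbonic anhydrase-like outer region. Ptprg had 12.1, 15.0 and 12.7 FPKM in irradiated thymus and 2.45, 0.977 and 1.40 FPKM in control thymus (3.05 ± 0.32, adjusted p 0.000268). Ptprz1, best known from glia, had 13.0, 10.1 and 21.9 FPKM in irradiated thymus and 1.74, 1.59 and 1.24 FPKM in control thymus (3.15 ± 0.30, adjusted p 0.000205). The groups did not overlap in either gene. Ptpru, a relative of Ptprm, was near the limit of detection in control thymus, at 0.101, 0.0712 and 0.079 FPKM, where irradiated thymus had 1.71, 3.50 and 0.954 FPKM (3.37 ± 0.52, adjusted p 0.00134). One fragment in a transcript of 1 kb is worth 0.039 to 0.046 FPKM here, and less in a longer transcript. The longest coding transcript of Ptpru has 5484 bases, so its control values rest on more fragments than the 1 kb value would give. Their number is still small.

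The remaining 3 stromal genes are non-receptor phosphatases with a FERM region, which places proteins at the cell cortex. Ptpn13 had 28.6, 21.3 and 18.8 FPKM in irradiated thymus and 5.08, 2.55 and 2.61 FPKM in control thymus (2.76 ± 0.30, adjusted p 0.000315). Ptpn14, which holds back the growth regulator YAP and has been described as a p53 target in mice, had 23.9, 28.8 and 23.6 FPKM in irradiated thymus and 9.68, 8.99 and 10.1 FPKM in control thymus (1.39 ± 0.14, adjusted p 0.000223). Its control level was the highest of the 9 stromal genes that rose. Ptpn21 had 3.90, 6.61 and 5.45 FPKM in irradiated thymus and 0.742, 0.694 and 1.52 FPKM in control thymus (2.37 ± 0.35, adjusted p 0.00115).

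**Figure D2:**
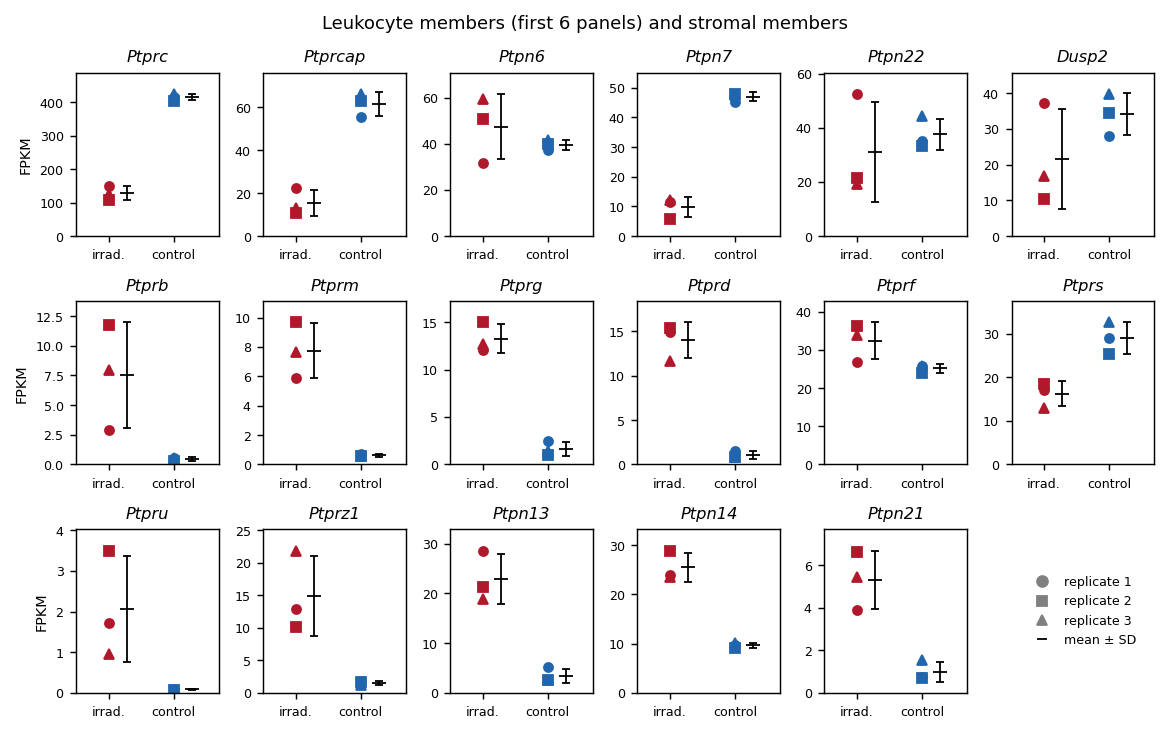
FPKM in each library (points; shape gives the replicate) with mean and SD (n = 3) for the 6 genes listed for white blood cells in the top row and the 11 stromal genes in the middle and bottom rows, irradiated left and control right. Ptprc, Ptprcap and Ptpn7 lie lower in irradiated thymus in all 3 libraries, Ptpn22 and Dusp2 overlap because irradiated replicate 1 is high, and all stromal genes but Ptprs lie higher.

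Summed over the lists, the stromal genes had 151, 177 and 157 FPKM in irradiated thymus, against 77.4, 65.8 and 77.3 FPKM in control thymus. The white blood cell genes had 304, 206 and 248 FPKM in irradiated thymus, against 618, 623 and 664 FPKM in control thymus. The ratio of the stromal to the white blood cell sum was 0.50, 0.86 and 0.64 in irradiated libraries and 0.13, 0.11 and 0.12 in control libraries, and the groups did not overlap. Irradiated replicate 1 had the lowest ratio of its group and replicate 2 the highest. Among the receptor-type genes alone, Ptprc held 48.8%, 33.9% and 39.6% of the summed FPKM in irradiated thymus, against 77.8%, 77.7% and 78.4% in control thymus. Of the 62 genes, those at 1 FPKM or more numbered 48, 51 and 48 in irradiated libraries and 41, 38 and 41 in control libraries. Among all 21954 genes the count was also higher in irradiated libraries, at 12853, 13711 and 13129, against 11336, 11274 and 11453 in control libraries.

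**Figure D3:**
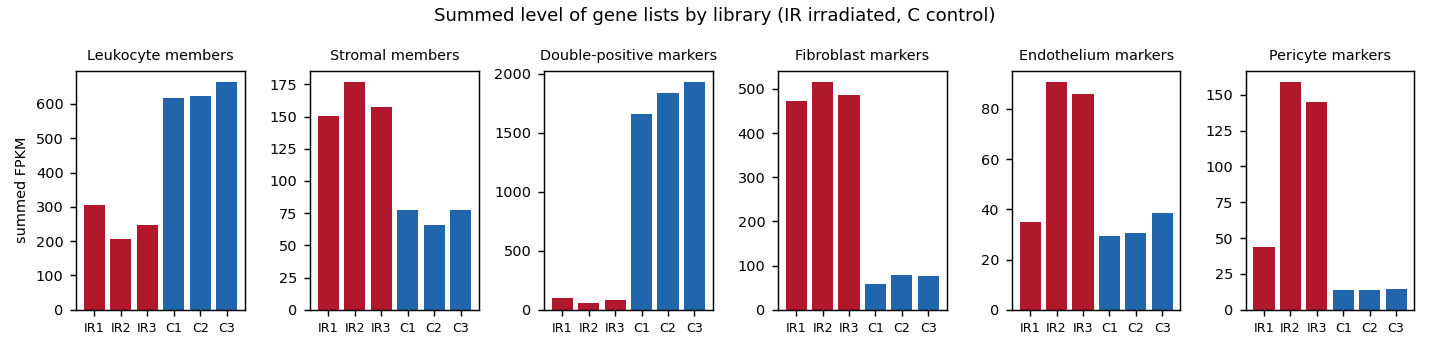
Summed FPKM per library, irradiated (IR1 to IR3) left of control (C1 to C3), for the white blood cell genes, the stromal genes and 4 sets of cell type markers. The sum of the white blood cell genes is 206 to 304 FPKM in irradiated libraries and 618 to 664 FPKM in controls, the stromal sum 151 to 177 FPKM and 65.8 to 77.4 FPKM, and the endothelial and pericyte sums of IR1 are below those of IR2 and IR3.

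Of the remaining receptor-type genes, Ptpra, a widely expressed activator of Src kinases, had 29.2, 38.6 and 34.6 FPKM in irradiated thymus and 41.6, 46.5 and 35.1 FPKM in control thymus. The groups overlapped (-0.26 ± 0.17, adjusted p 0.201), and under median-ratio scaling Ptpra fell (-0.73, adjusted p 0.00703). Ptprj, found on many haematopoietic, endothelial and epithelial cells, had 14.0, 22.0 and 21.7 FPKM in irradiated thymus and 3.74, 4.32 and 4.49 FPKM in control thymus and rose (2.15 ± 0.21, adjusted p 0.000217). Ptprk, an adhesion receptor that in rats is needed for normal development of CD4 thymocytes, had 8.82, 11.1 and 12.0 FPKM in irradiated thymus and 2.32, 1.67 and 1.46 FPKM in control thymus and rose as well (2.50 ± 0.23, adjusted p 0.000172).

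The genes listed for myeloid cells split. Ptpro had 2.17, 5.10 and 3.41 FPKM in irradiated thymus and 0.273, 0.402 and 0.932 FPKM in control thymus (2.58 ± 0.48, adjusted p 0.00294). Ptpre had 4.97, 5.81 and 7.31 FPKM in irradiated thymus and 7.52, 7.75 and 9.48 FPKM in control thymus, below the controls in every library but without passing (-0.46 ± 0.19, adjusted p 0.0736). It passed without irradiated replicate 3 and under both other scalings, in the same direction. Ptprn2, a secretory granule protein, rose to a mean of 0.981 FPKM, against 0.221 FPKM in control thymus (1.65 ± 0.50, adjusted p 0.0244), and this call was lost without control replicate 1 or 2 (adjusted p 0.0758 and 0.0828). Under quantile normalization its value was -0.025. Ptprq averaged 2.16 FPKM in irradiated and 1.45 FPKM in control thymus and did not pass (0.53, adjusted p 0.0948); it rose without irradiated replicate 1 (0.66, adjusted p 0.0405) and fell under quantile normalization (-0.74, adjusted p 0.0321). Together, 10 of 16 tested receptor-type genes rose and 2 fell, with a median of 2.32, where 42.4% and 20.9% of all tested genes did.

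Among the 15 tested non-receptor genes, 9 rose and 2 fell, with a median of 0.89, where 42.4% and 20.9% of all tested genes did. Ptpn1 encodes PTP1B, an enzyme of the endoplasmic reticulum surface that acts on the insulin and leptin receptor pathways, and had 41.5, 33.5 and 40.3 FPKM in irradiated thymus and 17.8, 21.4 and 19.4 FPKM in control thymus. Its irradiated mean was 1.97-fold the control mean (0.97 ± 0.14, adjusted p 0.00114). The share of this value that comes from noncoding transcripts is described further on. Ptpn3, another FERM phosphatase, had 8.29, 8.27 and 7.86 FPKM in irradiated thymus and 2.54, 1.19 and 1.44 FPKM in control thymus (2.25 ± 0.28, adjusted p 0.000572).

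Ptpn9, which binds lipids of vesicle membranes, averaged 14.0 ± 2.06 FPKM in irradiated and 4.75 ± 0.169 FPKM in control thymus (1.53 ± 0.16). Ptpn23, an endosomal sorting protein with a phosphatase-like region, averaged 15.0 ± 3.34 and 6.38 ± 0.353 FPKM (1.20 ± 0.19), and Ptpn12 (PTP-PEST), which acts on adhesion proteins, 16.3 ± 2.96 and 8.69 ± 0.953 FPKM (0.89 ± 0.17; SD, n = 3 each). All 3 rose, although Ptpn12 did not pass under median-ratio scaling (0.42, adjusted p 0.0711). Ptpn11 encodes SHP-2, which carries signals from growth factor receptors to the Ras pathway, and rose by less (0.60 ± 0.17, adjusted p 0.0203). This call was lost without irradiated replicate 2 or 3 and without control replicate 1 or 2, with adjusted p between 0.0589 and 0.0748, and under both other scalings.

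Ptpn18, a phosphatase of the PEST group with known action on the receptor HER2, averaged 16.0 ± 7.71 FPKM in irradiated and 34.0 ± 7.46 FPKM in control thymus (-1.16 ± 0.33, adjusted p 0.0187). Irradiated replicate 1 had 24.9 FPKM, just under the lowest control at 25.5 FPKM, while the other irradiated libraries had 11.3 and 11.8 FPKM. The call was lost without irradiated replicate 2 or 3 or without control replicate 2 or 3 (adjusted p 0.0564 to 0.0698). Ptpn2, which in T cells acts on JAK kinases and Lck, averaged 12.3 ± 1.88 and 14.3 ± 2.06 FPKM (-0.21 ± 0.17, adjusted p 0.314), and Ptpn4, expressed in T cells and brain, 9.20 ± 2.0 and 11.3 ± 0.261 FPKM (-0.32 ± 0.19, adjusted p 0.171). Neither difference passed on the FPKM scale. Under quantile normalization and median-ratio scaling both genes fell, Ptpn2 (log2 -0.47 and -0.68, adjusted p 0.0385 and 0.0068) and Ptpn4 (-0.66 and -0.79, adjusted p 0.0392 and 0.0115).

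Of 8 tested MAP kinase phosphatases, 4 rose, 1 fell and 3 did not pass, with a median of 0.57, which is near the 42.4%, the 20.9% and the median of 0.40 of all tested genes. Dusp1 (MKP-1), a nuclear enzyme induced by stress and growth factors, had 14.9, 16.8 and 19.9 FPKM in irradiated thymus and 5.47, 5.91 and 7.58 FPKM in control thymus, and rose (1.44 ± 0.18, adjusted p 0.000609). Dusp6 (MKP-3) and Dusp7 are cytoplasmic and prefer ERK. Dusp6 averaged 29.3 ± 13.7 FPKM in irradiated thymus, spread from 16.6 to 43.8 FPKM, against 8.71 ± 0.826 FPKM in control thymus (1.63 ± 0.33, adjusted p 0.00418). Dusp7 averaged 15.8 ± 1.86 and 6.40 ± 0.342 FPKM (1.28 ± 0.14, adjusted p 0.000358; SD, n = 3 each). In each of these 3 genes every irradiated value lay above every control value.

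Dusp16 and Dusp10, which act mainly on the stress kinases JNK and p38, went opposite ways. Dusp16 (MKP-7) averaged 9.50 ± 1.11 FPKM in irradiated and 5.68 ± 0.432 FPKM in control thymus and rose (0.73 ± 0.15, adjusted p 0.00545), although it did not pass under quantile normalization (0.31) or median-ratio scaling (0.26). Dusp10 (MKP-5) averaged 9.70 ± 1.84 and 22.3 ± 2.62 FPKM (SD, n = 3 each) and fell (-1.20 ± 0.18, adjusted p 0.00122).

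The inducible nuclear enzymes Dusp4 and Dusp5 were measured beside Dusp1 and Dusp2 as genes that have been described as p53 targets, mostly in human cells. Dusp4 had 5.05, 7.61 and 7.18 FPKM in irradiated thymus and 4.57, 4.97 and 5.02 FPKM in control thymus, above the controls in all 3 libraries but short of the threshold (0.42 ± 0.20, adjusted p 0.101). Without irradiated replicate 1 it rose (0.60, adjusted p 0.00764). Dusp5 had 6.00, 6.28 and 12.3 FPKM in irradiated thymus and 9.52, 10.9 and 12.3 FPKM in control thymus, overlapping through irradiated replicate 3 (-0.48 ± 0.29, adjusted p 0.181). Without that library Dusp5 fell (-0.81, adjusted p 0.00924). Of the 5 genes of the p53-target list in the table (Dusp1, Dusp2, Dusp4, Dusp5 and Ptpn14), 2 rose and 0 fell, a share of risers near the 42.4% of all tested genes. Under median-ratio scaling Dusp2 and Dusp5 fell (-1.31 and -0.94).

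**Figure D4:**
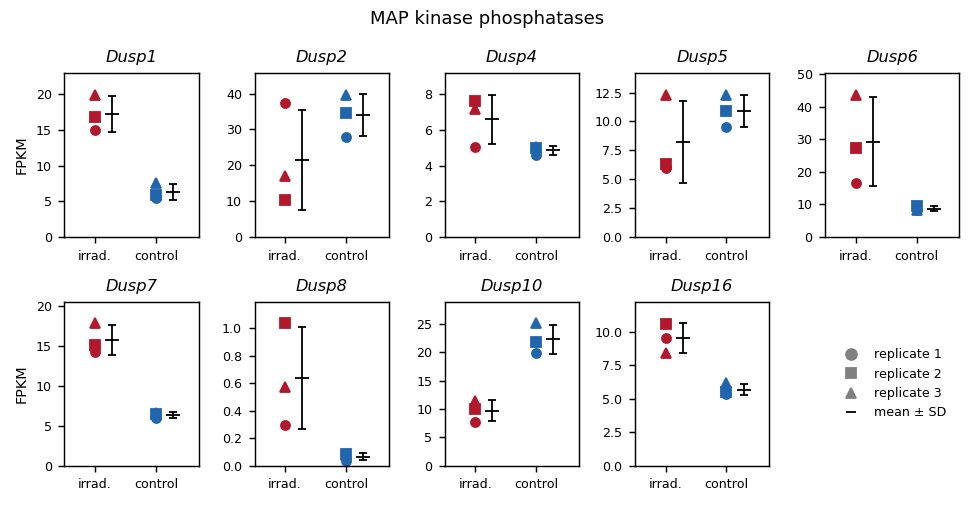
FPKM in each library (points; shape gives the replicate) with mean and SD (n = 3) for 9 of the 10 MAP kinase phosphatases, irradiated left and control right; Dusp9, at most 0.221 FPKM, is not drawn. Dusp1, Dusp6, Dusp7 and Dusp16 lie higher in irradiated thymus, Dusp10 lies lower, and Dusp2 and Dusp5 overlap through a single high irradiated library each.

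The atypical dual-specificity phosphatases lack the region that binds MAP kinases. Of 10 tested, 6 rose and 0 fell, with a median of 1.78. Of all tested genes 42.4% rose and 20.9% fell, with a median of 0.40. Dusp3 (VHR), which acts on ERK and JNK in the nucleus, had 6.23, 16.0 and 14.1 FPKM in irradiated thymus and 1.52, 1.18 and 1.26 FPKM in control thymus (3.00 ± 0.36, adjusted p 0.000485). Dusp14 had 2.54, 6.29 and 6.33 FPKM in irradiated thymus and 0.582, 0.821 and 0.705 FPKM in control thymus (2.58 ± 0.39, adjusted p 0.00124). In both genes irradiated replicate 1 was the lowest of its group and still above the controls.

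Dusp23, a small enzyme with little beyond its catalytic region, had 3.07, 5.73 and 5.24 FPKM in irradiated thymus and 1.02, 0.781 and 1.26 FPKM in control thymus (2.07 ± 0.31, adjusted p 0.00124). Dusp18, which is found in mitochondria, had 0.556, 3.02 and 1.55 FPKM in irradiated thymus and 0.116, 0.112 and 0.0864 FPKM in control thymus (2.88 ± 0.61, adjusted p 0.00523). Its values rest on few fragments in control thymus, and it did not pass under quantile normalization. Dusp22 (JKAP), which in T cells acts on Lck, averaged 10.0 ± 1.60 and 2.96 ± 0.483 FPKM (1.72 ± 0.20, adjusted p 0.00043), and Dusp15 2.42 ± 1.04 and 0.614 ± 0.31 FPKM (1.84 ± 0.44, adjusted p 0.00893; SD, n = 3 each). Dusp15 also did not pass under quantile normalization.

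Dusp11, which acts on RNA ends and not on protein, was the most abundant of the atypical genes, with 28.5, 25.0 and 27.1 FPKM in irradiated thymus and 34.7, 31.0 and 37.0 FPKM in control thymus. Every irradiated value lay below every control value, and the difference missed the threshold narrowly (-0.35 ± 0.13, adjusted p 0.0502). The authors' deposited table gives it an adjusted p of 0.028 with a lower level in irradiated thymus, and in limma it fell under both other scalings (-0.43 and -0.82) and without irradiated replicate 1 (-0.39). Dusp12, Dusp19 and Dusp28 overlapped between the groups, at means of 6.13, 4.70 and 10.8 FPKM in irradiated and 6.59, 4.51 and 8.60 FPKM in control thymus. Dusp19 fell under quantile normalization (-0.65, adjusted p 0.015), and Dusp28 rose without irradiated replicate 1 (0.53, adjusted p 0.0107).

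Of the 12 genes that averaged under 0.5 FPKM, Dusp8 was the nearest to testing among the MAP kinase phosphatases, with 0.299, 1.03 and 0.575 FPKM in irradiated thymus and 0.0373, 0.0885 and 0.0759 FPKM in control thymus. Ptprn averaged 0.58 and 0.346 FPKM, Ptpn5 0.356 and 0.192 FPKM, and Ptprt 0.333 and 0.0967 FPKM. Just inside the limit lay Ptprn2. The 3 genes listed for skeletal muscle, Dusp13, Dusp26 and Dusp27, summed to 0.216, 1.03 and 0.47 FPKM in irradiated libraries and 0, 0.0366 and 0.251 FPKM in control libraries, highest in irradiated replicate 2, which also had the highest muscle markers. Dusp9, Ptprh, Ptprr and Ptpn20 stayed under 0.41 FPKM in every library, and Dusp21 is listed at 0 in all 6.

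In the authors' deposited table, made with DESeq2, 61 of the 62 genes have a result, 30 of them higher and 7 lower in irradiated thymus at an adjusted p under 0.05, where 32.5% and 14.0% of the genes it tests are. The call differed from limma's for 4 of the 50 genes: Ptpn11, Ptpn12 and Dusp16 passed only in limma and Dusp11 only in the deposited table. Both sets of calls rest on the same 6 libraries.

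The level of a gene in the mRNA table includes the gene's noncoding transcripts, which are also given separately in the lncRNA table. For 12534 genes in both tables, the noncoding sum exceeded the gene's value by more than 0.001 FPKM in 0 cases. Of the phosphatase genes, 47 have noncoding transcripts there, 158 in all, of which 88 are retained introns and 70 processed transcripts by their GENCODE type. Of the 29 genes whose noncoding sum could be tested, 10 rose and 8 fell, where 15.8% and 30.1% of the 9421 tested genes of that table did (46.0% in either direction). The remaining coding part, the gene's value less its noncoding transcripts, rose for 28 of 50 genes and fell for 5, where 43.4% and 16.9% of 13685 genes did. How the authors divided fragments among overlapping transcripts is not given in the sources used here. Retained introns can share exons with coding transcripts, while some, such as ENSMUST00000187586 of Ptprc, are 1 unspliced stretch (3384 bases).

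For Ptpn1 nearly all of the difference in mean lay in noncoding transcripts, as the authors divided the fragments. They made up 81.1% of its level in irradiated and 69.3% in control thymus. The processed transcript ENSMUST00000126839 (chr2:167932372-167979385, GRCm38) had 29.7, 19.7 and 23.8 FPKM in irradiated thymus, against 6.15, 8.14 and 8.96 FPKM in control thymus. It has 4292 bases and spans nearly the whole gene, whose longest coding transcript has 4213 bases. How well fragments can be told apart between these transcripts was not tested. The coding part had 2.72, 9.32 and 9.72 FPKM in irradiated thymus and 6.28, 5.90 and 5.83 FPKM in control thymus, overlapping because irradiated replicate 1 was the lowest of all (0.07 ± 0.47, adjusted p 0.911). Ptpn11 was alike in this respect: 88.6% of its level in irradiated and 84.0% in control thymus was noncoding, and the coding part had 1.60, 2.87 and 1.23 FPKM in irradiated and 1.36, 1.84 and 2.03 FPKM in control thymus (0.05 ± 0.35, adjusted p 0.903).

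The LAR subfamily read differently once noncoding transcripts were set apart. The noncoding transcripts of Ptprf fell (-0.82 ± 0.23, adjusted p 0.0191) to 2.92 FPKM in irradiated thymus, against 5.23 FPKM in control thymus, and its coding part rose (0.55 ± 0.17, adjusted p 0.0266) to 29.4 FPKM, against 19.9 FPKM. In Ptprs, the noncoding part averaged 5.36 FPKM in irradiated and 14.1 FPKM in control thymus, and the coding part 10.8 ± 2.11 and 14.8 ± 1.46 FPKM (SD, n = 3 each). The coding part of Ptprs stayed below the controls in all 3 libraries without passing (-0.47 ± 0.18, adjusted p 0.0632). Noncoding transcripts also fell for Ptpn6 (-0.70 ± 0.25), Ptpra (-0.91 ± 0.20) and Ptpn4 (-1.27 ± 0.39), whose gene levels did not pass.

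For Ptprc and Dusp1 both parts moved the same way. The coding part of Ptprc had 45.4, 41.1 and 49.7 FPKM in irradiated thymus and 127, 125 and 120 FPKM in control thymus (-1.45 ± 0.15, adjusted p 0.000343). Noncoding transcripts made up 64.4% of the Ptprc level in irradiated and 70.2% in control thymus. The coding part of Dusp1 averaged 4.87 ± 1.25 and 2.25 ± 0.692 FPKM (1.09 ± 0.28, adjusted p 0.0145), and its noncoding part 12.4 ± 1.31 and 4.07 ± 0.516 FPKM (1.58 ± 0.21, adjusted p 0.00107; SD, n = 3 each). Of the 40 tested genes in both tables, at least 50% of the level was noncoding in 4 in irradiated and 5 in control thymus.

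**Figure D5:**
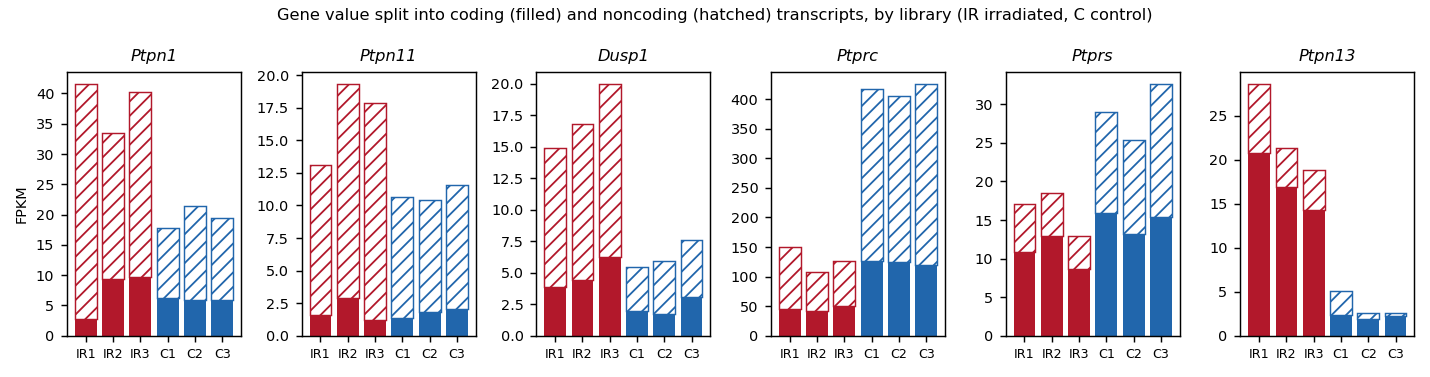
Gene level in FPKM per library, irradiated (IR1 to IR3) left of control (C1 to C3), split into the coding part (filled) and noncoding transcripts (hatched) for 6 genes. The coding part of Ptpn1 is 2.72 to 9.72 FPKM in irradiated and 5.83 to 6.28 FPKM in control thymus. The higher totals of Ptpn1 in irradiated thymus thus lie mostly in the hatched part, while for Ptpn13 the coding part itself differs.

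The genes that phosphatases act with were read in the same fit. Of 21 tyrosine kinases of T cell receptor and cytokine signalling, 9 rose and 4 fell (median 0.26), shares near the 42.4% and 20.9% of all tested genes. Those that fell included Lck, at 48.9 FPKM in irradiated and 338 FPKM in control thymus (-2.80), Zap70 (-1.73) and Txk (-1.81), which are kinases of T cells. Src (20.4 and 3.35 FPKM) and Lyn (40.9 and 6.30 FPKM) had the smallest adjusted p among those that rose, and Csk, the kinase that opposes CD45 at Lck, averaged 42.2 and 52.1 FPKM without passing (-0.31, adjusted p 0.142). Of 22 receptor tyrosine kinases of stroma, 21 rose and 0 fell (median 3.01), with Axl at 99.8 and 15.0 FPKM, Ddr1 at 46.5 and 4.71, Egfr at 19.3 and 2.15 and Ddr2 at 16.0 and 1.89. Tek, the gene of Tie2 on which VE-PTP acts, had 5.68 FPKM in irradiated and 0.405 FPKM in control thymus (3.37). Insr, the insulin receptor, did not pass (0.29, adjusted p 0.176).

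Of 19 tested MAP kinases and their activating kinases, 7 rose and 4 fell (median 0.27), again near the shares of all tested genes. Mapk3 (ERK1) averaged 45.1 FPKM in irradiated and 12.8 FPKM in control thymus and rose (1.76). Mapk13 and Mapk12, of the p38 group, rose (3.24 and 2.60), and the p38 activator Map2k6 fell (-1.32). Mapk8 (JNK1) and Map2k5 also fell (-0.80 and -0.62). Of 16 tested genes that respond to ERK signalling, 10 rose and 1 fell (median 0.97). Among all tested genes 42.4% rose and 20.9% fell (median 0.40). Under quantile normalization fewer of these 16 genes rose and more fell. Spry2, Ier3, Junb and Spry1 had the smallest adjusted p (2.63, 3.67, 1.41 and 1.58), Myc fell (-0.52, adjusted p 0.0299), and Egr1 averaged 11.7 and 11.02 FPKM (0.015).

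Of 25 tested phosphatases that the name rule leaves out, 11 rose and 8 fell (median 0.19), beside 42.4% and 20.9% of all tested genes. The Eya genes, which encode transcription cofactors with tyrosine phosphatase activity, were led by Eya4 at 16.1 FPKM in irradiated and 1.76 FPKM in control thymus (3.12), Eya1 at 14.3 and 1.67 FPKM (3.04) and Eya2 (2.08), while Eya3 did not pass (-0.03). The cell cycle phosphatases Cdc25a, Cdc25b and Cdc25c fell (-1.55, -1.15 and -2.92), as did Cdkn3 (-2.74). The paired regulators Ubash3a, the T cell form, and Ubash3b, the broader form, went apart: Ubash3a fell to 5.30 FPKM, against 17.3 FPKM in control thymus (-1.71), and Ubash3b rose to 6.50 FPKM, against 2.13 FPKM (1.57).

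By encoded length, 20 of the 62 genes have an open reading frame of more than 1000 residues, led by Ptpn13 with 2451 residues, Ptprz1 with 2312 and Ptprq with 2300. The longest gene span was that of Ptprd, 2270724 bases on chromosome 4 with up to 36 exons in GENCODE M21, and it also had the largest log2 fold change. Dusp23, with 150 residues and up to 2 exons, encodes the shortest.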

How the data were processed

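RNA was extracted with TRIzol from thymus and polyadenylated RNA was sequenced, per the labels. The authors deposited 1 FPKM value per gene and library in an mRNA table and 1 per transcript in an lncRNA table, with their own log2 fold changes and adjusted p-values. DESeq2 1.10.1 is named in the submitters' processing notes; the aligner, the quantification tool and strand handling are not given here. All 186 transcript lines of the 62 genes have the same start and end in GENCODE M21 (GRCm38). Estimated depth was (in units of 1000 x 1000 fragments) 24.4, 25.6 and 24.4 in irradiated and 22.2, 23.3 and 21.7 in control libraries, from the FPKM of 1 fragment. Fits used limma 3.58.1 (R 4.3.3) on log2(FPKM + 0.1) with group as the single term and an abundance trend, a mean of 0.5 FPKM as the minimum, and Benjamini-Hochberg adjustment over each table. The fits were tested on simulated data. Members and lists were chosen with earlier results of these data known. Library values are given for the listed white blood cell, stromal, myeloid and p53-target genes, the 10 most abundant, and those past the threshold that changed by 2 or more (log2) and reached 1 FPKM; elsewhere the 4 smallest adjusted p and exceptions are named, and other genes for contrast after their values were seen. Splitting off noncoding transcripts was added after seeing the data. A planned search of protein sequences was not analysed here, and some genes of the other lists are counted but not reported singly. Alternatives were other pseudocounts, filters, scalings, a replicate block and leaving out each library.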

Additional observations from a re-analysis of the deposited data

How the results depend on the processing

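With other pseudocounts, filters or no abundance trend, every gene still tested kept its direction and at most 1 changed its side of the threshold per setting. Quantile normalization turned Dusp19 (-0.65), Ptprn2 (-0.025) and Ptprq (-0.74), and gave 13 lower genes, 4 higher and 7 lower MAP kinase genes, 4 higher and 3 lower ERK-response genes and 4 lower noncoding sums. Median-ratio scaling gave 13 lower genes, 8 lower MAP kinase genes, 9 lower T cell receptor and cytokine kinases, 3 lower ERK-response genes and 4 lower noncoding sums. With coding transcripts only, 0 stromal genes and 2 MAP kinase genes fell. Leaving out 1 library at a time gave 27 to 34 higher and 5 to 9 lower genes, 0 to 1 higher and 3 to 5 lower white blood cell genes, 7 to 11 higher and 4 to 10 lower noncoding sums, 4 to 9 higher and 2 to 5 lower MAP kinase genes, and 0 to 1 lower ERK-response genes. The cause of these shifts was not tested. No label pairs the same-numbered libraries. The correlations of their deviations from the group means were 0.0596, -0.0433 and 0.0516, and those of differently numbered libraries ran from -0.0963 to 0.0556. With 3 libraries per group these values cannot decide whether the libraries were paired. With the replicate number as a block, 28 genes rose and 6 fell (Ptprn2 adjusted p 0.0558), 5 noncoding sums and 0 ERK-response genes fell. Depth limits genes under 0.5 FPKM, and 3 libraries per group limit precision.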

Other observations

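A pair of genes whose names match the pattern are listed only among the lncRNA transcripts. Ptprv, which has been described as a p53 target in mice, had 1.28, 2.30 and 1.46 FPKM in irradiated thymus and 1.58, 2.74 and 2.99 FPKM in control thymus, overlapping between the groups (-0.50 ± 0.34, adjusted p 0.245 in limma over the lncRNA table). Ptprtos, antisense to Ptprt, was listed at 0 in 5 libraries and at 0.192 FPKM in irradiated replicate 3.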
